A study of Homo sapiens with 34 samples.

Results

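The enzymes of glycolysis and the tricarboxylic acid (TCA) cycle were examined as a set of 43 genes, named by symbol and chosen by pathway. The choice used no cut on measured values, but it was made with earlier results of these data known. Glycolysis and its regulators contributed 23 genes, from the glucose transporters to pyruvate dehydrogenase kinase 1, and mitochondrial oxidation contributed 20, from the pyruvate dehydrogenase complex to malate dehydrogenase. All 43 symbols were found among the 28690 loci of the gene tables, and each had 1 locus with a mean of at least 0.7 FPKM (mapped fragments scaled by transcript length and library size), a level that 14678 loci reached. GPI had a further locus on an alternate contig that was listed at 0 in every library and was not used.

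RNA was collected from U2OS cells, a human osteosarcoma line, that stably carried Bmal1:luc, a luciferase gene under the Bmal1 promoter. The cultures were synchronized with dexamethasone and kept in 5 mM 6-aminonicotinamide (6AN), an inhibitor of the NADPH-producing enzymes of the pentose phosphate pathway, or in the vehicle DMSO (control). Each condition had 12 libraries, 1 for each time point labelled from 0 to 44 hr in steps of 4 hr. BMAL1, CLOCK, H3K4me3, H3K9ac and input were profiled by ChIP-seq with 1 library each per condition, 10 in all. According to the paper, chromatin for BMAL1 and CLOCK was extracted at a single time of incubation. All cells were of a single reporter line, each condition was followed in its own culture series, and the control and 6AN tables were normalized apart. Treatment, culture series and table therefore cannot be told apart in any difference of level, and in bulk RNA fewer cells that express a gene cannot be told apart from less RNA per cell.

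Glycolysis splits glucose into pyruvate in the cytosol and yields ATP and NADH, and lactate dehydrogenase returns NAD+ by reducing pyruvate to lactate. The pentose phosphate pathway leaves glycolysis at glucose 6-phosphate and feeds back into it at fructose 6-phosphate and glyceraldehyde 3-phosphate. Pyruvate that enters mitochondria is oxidized to acetyl-CoA by the pyruvate dehydrogenase complex and then burnt in the TCA cycle, and tumour lines such as U2OS often send much of their pyruvate to lactate instead.

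The libraries differed in depth, which was known only in relative terms, from what 1 read was worth at rare loci. The range was from 0.582 to 1.32 times the table's median in control and from 0.697 to 1.56 times in 6AN. Of 5 markers of a mesenchymal bone line, VIM, RUNX2, SPARC and COL1A1 were present, whereas COL1A2 stayed at or below 0.106 FPKM in every library. The summed level of the 5 markers was between 1194 and 1608 FPKM in control and between 796 and 1154 FPKM in 6AN. The summed level of 5 markers of other cell types (PTPRC, EPCAM, CDH1, ALB and PECAM1) was between 1.11 and 2.24 FPKM in control and between 1.10 and 2.30 FPKM in 6AN.

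Levels differed between 6AN and control mainly in the part of glycolysis from triose phosphate to lactate, where most transcripts were less abundant, and at hexokinase, where HK2 was more abundant. Of the 43 genes, 17 (39.5%) were lower in 6AN at all 12 time points, against 19.8% of all loci tested. A further 3 (6.98%) were higher at all 12, against 12.6% of all loci, and the other 23 had mixed signs. With each library centred on its own median the split was 6 higher and 16 lower, the 3 added being PFKL, CS and IDH3A. Sizes are given as the difference of log2(FPKM + 1), 6AN minus control at the same hour, averaged over the 12 hours with its SD. The median over the 43 genes was -0.18, against -0.04 over all loci tested. Glycolysis had 10 of 23 lower and 3 higher with a median of -0.23, and mitochondrial oxidation had 7 of 20 lower and 0 higher with a median of -0.14. A mean difference of 0.5 or more in size, with the same sign throughout, was reached by 1 gene upwards (HK2; 4.82% of all loci) and by 6 downwards (TPI1, LDHA, PGAM1, ENO1, PFKFB4 and PGK1; 9.09% of all loci). The ranges of the 12 control and 12 6AN libraries did not overlap for 1 higher gene, HK2 (5.66% of all loci), and for 8 lower ones (18.6%, against 9.93% of all loci), which were TPI1, PGK1, PGAM1, ENO1, LDHA, DLD, SUCLG2 and MDH1. No test was applied to these differences because the tables were scaled apart.

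**Figure D1:**
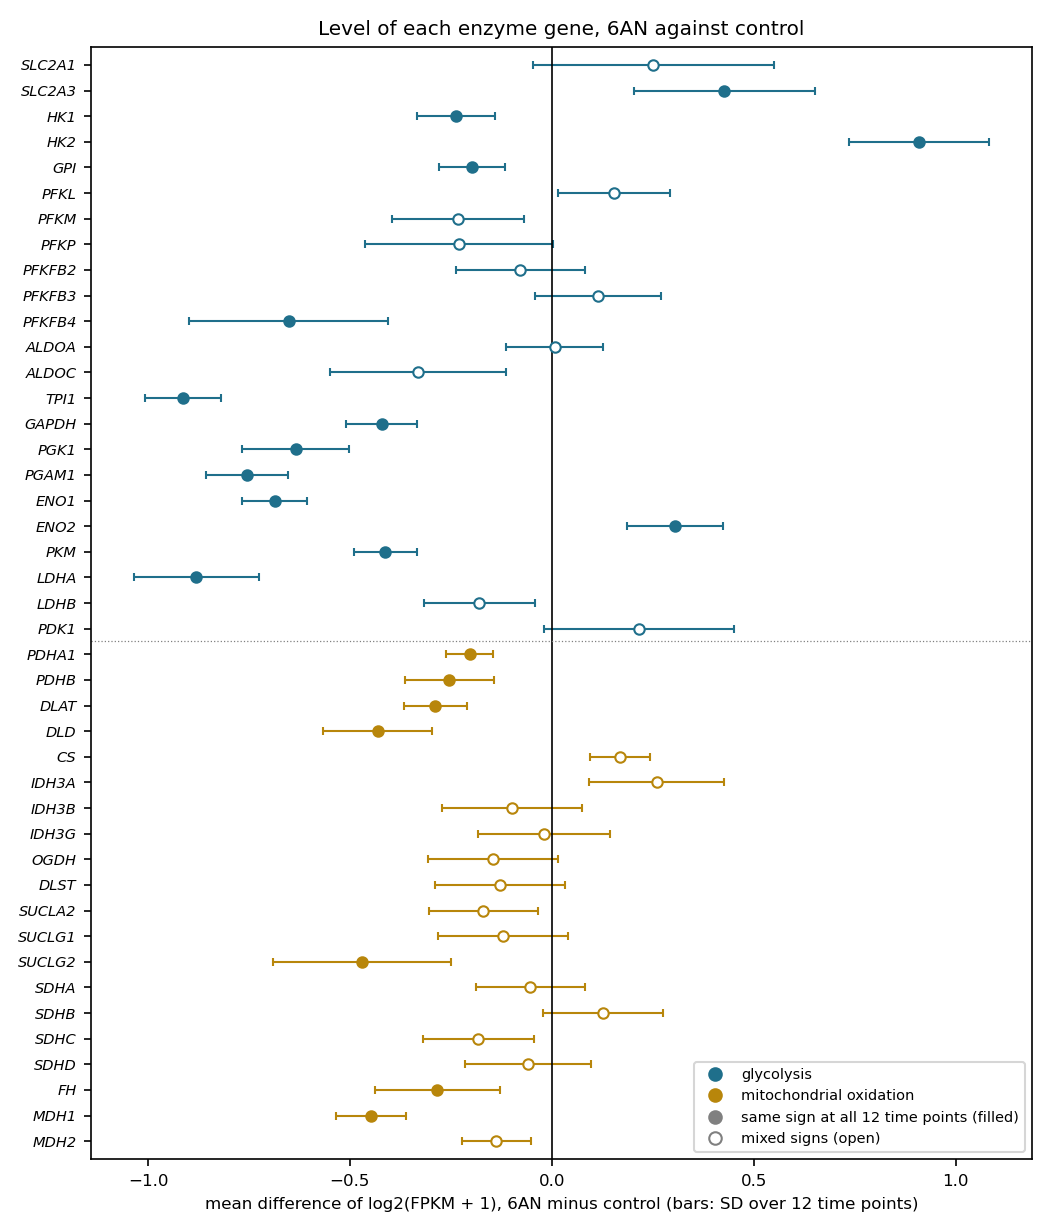
Mean difference of log2(FPKM + 1), 6AN minus control, for each of the 43 genes in pathway order, with glycolysis above the dotted line and mitochondrial oxidation below. Bars are the SD over 12 time points, and filled points have the same sign at all 12; HK2 lies farthest to the right at 0.91 and TPI1 farthest to the left at -0.91.

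BMAL1 and CLOCK bind E-box motifs, so the start sites of the genes were read beside the ChIP-seq peaks. The 5 sequences shown are the 250 bases before a RefSeq transcription start (GRCh38.p14) of the genes where a BMAL1 or CLOCK peak overlapped that window and either an E-box was found or, for PKM, a shared BMAL1/CLOCK site was listed. Capitals mark CACGTG, which reads the same on both strands.
HK2, chr2:74834920-74835169, plus strand: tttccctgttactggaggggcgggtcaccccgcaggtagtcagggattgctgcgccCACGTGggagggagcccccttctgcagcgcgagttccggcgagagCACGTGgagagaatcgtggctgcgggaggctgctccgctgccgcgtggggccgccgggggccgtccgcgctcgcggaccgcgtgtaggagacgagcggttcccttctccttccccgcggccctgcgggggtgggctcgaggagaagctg
PFKFB3, chr10:6202682-6202931, plus strand: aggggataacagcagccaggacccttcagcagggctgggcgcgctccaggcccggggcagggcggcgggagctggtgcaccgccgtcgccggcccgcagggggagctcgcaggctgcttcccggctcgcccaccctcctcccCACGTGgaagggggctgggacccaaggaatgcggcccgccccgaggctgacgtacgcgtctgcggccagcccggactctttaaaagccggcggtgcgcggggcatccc
GAPDH, chr12:6535014-6535263, plus strand: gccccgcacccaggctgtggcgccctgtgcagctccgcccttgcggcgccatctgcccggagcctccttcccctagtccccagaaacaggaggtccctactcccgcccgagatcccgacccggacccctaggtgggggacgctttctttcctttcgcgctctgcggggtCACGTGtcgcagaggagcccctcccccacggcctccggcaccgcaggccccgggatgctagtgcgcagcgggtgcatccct
PKM, chr15:72231191-72231440, minus strand: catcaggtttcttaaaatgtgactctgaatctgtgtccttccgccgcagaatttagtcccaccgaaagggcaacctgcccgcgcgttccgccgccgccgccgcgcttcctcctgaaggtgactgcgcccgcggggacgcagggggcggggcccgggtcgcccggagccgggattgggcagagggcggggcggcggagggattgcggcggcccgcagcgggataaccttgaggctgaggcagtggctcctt
LDHA, chr11:18394313-18394562, plus strand: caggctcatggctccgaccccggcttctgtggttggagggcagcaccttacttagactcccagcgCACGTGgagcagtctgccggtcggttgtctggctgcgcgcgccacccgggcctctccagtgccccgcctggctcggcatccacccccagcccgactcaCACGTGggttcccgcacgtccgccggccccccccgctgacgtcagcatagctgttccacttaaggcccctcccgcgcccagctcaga
HK2 and LDHA each held 2 copies of CACGTG, PFKFB3 and GAPDH held 1, and PKM held 0. This follows from the choice of windows, which favoured those with the motif. Peaks also overlapped windows without CACGTG that are not printed, at SDHA, SDHB, SDHD, CS, MDH2 and the other starts of HK2 and LDHA. In LDHA the copies began 185 and 87 bases before the start and both lay inside the peak. In HK2 they began 194 and 149 bases before the start, and the nearer copy lay inside the peak. The single copies of PFKFB3 and GAPDH, 108 and 81 bases before the start, were also inside their peaks. Over the full 300-base RefSeq windows, which add 50 bases after the start, CACGTG was present for 7 of the 39 genes with a window (17.9%, against 8.77% of all genes with a window), which were HK2, PFKFB3, ALDOA, ALDOC, GAPDH, LDHA and PDHB. Counted by window, it was in 7 of their 63 windows (11.1%, against 7.26% of all 35116 windows). SLC2A3, PFKFB2, OGDH and SDHC had no window. A match is a description of these letters only.

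Glucose enters these cells through facilitative transporters. SLC2A3, which encodes the high-affinity neuronal-type transporter GLUT3, lay between 15.9 and 26.2 FPKM in control (median 19.8) and between 21.9 and 39 FPKM in 6AN (median 26.7). It was higher in 6AN at all 12 time points, by 0.43 ± 0.22 (SD, n = 12), although the ranges overlapped. SLC2A1, encoding the ubiquitous transporter GLUT1, lay between 21.9 and 30.6 FPKM in control (median 25.4) and between 24 and 39 FPKM in 6AN (median 30.2). It was higher at 9 of 12 time points, and its mean difference went from 0.08 over the first 6 time points to 0.43 over the last 6. The sum of both transporters was higher at all 12.

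Hexokinase phosphorylates glucose and holds it in the cell. HK2, the inducible form that binds mitochondria and is prominent in tumours, lay between 6.38 and 8.67 FPKM in control (median 7.37) and between 11 and 19.3 FPKM in 6AN (median 14.9). All 6AN libraries were above all control libraries, and the medians differed 2.01-fold. The mean difference was 0.91 ± 0.17 (SD, n = 12), with 0.78 over the first 6 time points and 1.04 over the last 6. HK1, the constitutive form, lay between 71.2 and 89.3 FPKM in control (median 77.8) and between 57.1 and 85.1 FPKM in 6AN (median 64.3), and was lower at all 12 time points. HK2 thereby made up 8.45% of summed hexokinase FPKM in the median control library and 18.6% in the median 6AN library. The hexokinase sum differed by only -0.07 ± 0.07 (SD, n = 12). The E-box window of HK2 printed above held a CLOCK peak in 6AN (chr2:74835008-74835208), as did the window of its other RefSeq start (chr2:74833871-74834071), and neither was called for CLOCK in control or for BMAL1.

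GPI, which interconverts glucose 6-phosphate and fructose 6-phosphate, lay between 61.8 and 83.2 FPKM in control (median 71.1) and between 54.7 and 70.7 FPKM in 6AN (median 61.2). It was lower at all 12 time points, by a modest mean of -0.20 ± 0.08 (SD, n = 12). Phosphofructokinase, the main control point of glycolysis, is built from 3 kinds of subunit. PFKL, the liver-type subunit, lay between 44.7 and 54.3 FPKM in control (median 49.2) and between 49.7 and 63.9 FPKM in 6AN (median 55.0). PFKM, the muscle-type subunit, lay between 24.8 and 33.5 FPKM in control (median 29.6) and between 18.9 and 28 FPKM in 6AN (median 25.3). PFKP, the platelet-type subunit, lay between 27 and 36.9 FPKM in control (median 33.9) and between 22.2 and 38.7 FPKM in 6AN (median 27.9). The ranges overlapped for each of the 3, PFKL being higher in 6AN at 9 time points and PFKM and PFKP lower at 11 and 10. PFKL accordingly went from 44.2% to 51.3% of the summed subunits in the median library, while the sum differed by -0.05 ± 0.13 (SD, n = 12).

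Fructose 2,6-bisphosphate, the strongest activator of phosphofructokinase, is made and removed by the bifunctional PFKFB enzymes. PFKFB4 lay between 2.60 and 4.64 FPKM in control (median 3.52) and between 1.35 and 2.96 FPKM in 6AN (median 1.81). It was lower in 6AN at all 12 time points, by -0.65 ± 0.25 (SD, n = 12), and only its 6AN libraries of hours 0 and 8 reached the control range. PFKFB3, the inducible form with the highest kinase activity, lay between 9.65 and 13.3 FPKM in control (median 11) and between 9.40 and 15.4 FPKM in 6AN (median 12). PFKFB2, the form best known from heart, lay between 4.75 and 7.0 FPKM in control (median 5.55) and between 4.35 and 5.96 FPKM in 6AN (median 5.48). Neither PFKFB3 nor PFKFB2 had a constant sign, and PFKFB4 was the only 1 of the 3 to differ in the same direction throughout. At the PFKFB3 start printed above, a BMAL1 peak was listed in 6AN (chr10:6202772-6202972). Another interval (chr10:6163643-6163979) lay inside the locus, 18890 bp after the other RefSeq start. It was called for BMAL1 in both conditions and for CLOCK in 6AN.

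Aldolase splits fructose 1,6-bisphosphate into triose phosphates. ALDOA, the main form in most tissues, lay between 285 and 404 FPKM in control (median 319) and between 294 and 379 FPKM in 6AN (median 331). Its mean difference was 0.01 ± 0.12 (SD, n = 12), so it differed by less than its own spread over time. ALDOC, the brain-type form, lay between 9.38 and 12.4 FPKM in control (median 10.8) and between 6.62 and 10.1 FPKM in 6AN (median 8.44), lower at 11 of 12 time points. Upstream of the triose phosphates, then, the members differed in both directions.

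From triose phosphate isomerase to pyruvate kinase, 6 of 7 genes were lower in 6AN at all 12 time points and ENO2 was higher at all 12. TPI1, which equilibrates the triose phosphates, lay between 361 and 454 FPKM in control (median 398) and between 193 and 227 FPKM in 6AN (median 215). The highest 6AN library was below the lowest control library, and the mean difference was -0.91 ± 0.09 (SD, n = 12). GAPDH, which makes the NADH of glycolysis and is often used as a loading reference, lay between 2537 and 3199 FPKM in control (median 2709.6) and between 1881 and 2556 FPKM in 6AN (median 2025). Its mean difference was -0.42 ± 0.09 (SD, n = 12), and only the 6AN library of hour 0 reached the control range. The GAPDH window printed above was overlapped by a BMAL1 peak in control only (chr12:6535016-6535216), which ended before the start.

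PGK1, which makes the first ATP of the pathway, lay between 169 and 205 FPKM in control (median 183) and between 102 and 131 FPKM in 6AN (median 121). PGAM1, the mutase that moves the phosphate of 3-phosphoglycerate, lay between 109 and 149 FPKM in control (median 127) and between 65.6 and 87.4 FPKM in 6AN (median 74.5). ENO1, the ubiquitous enolase, lay between 875 and 1119 FPKM in control (median 941) and between 557 and 677 FPKM in 6AN (median 586). For PGK1, PGAM1 and ENO1 the ranges were fully apart, with mean differences of -0.63 ± 0.13, -0.76 ± 0.10 and -0.69 ± 0.08 (SD, n = 12 each). ENO2, the neuron-type enolase, lay between 27.2 and 39.1 FPKM in control (median 32.1) and between 30.3 and 48.2 FPKM in 6AN (median 40.3), with a mean difference of 0.31 ± 0.12 (SD, n = 12). ENO2 remained a minor form, going from 3.19% to 6.57% of summed enolase in the median library, and the sum was lower at all 12 time points by -0.64 ± 0.08 (SD, n = 12). PKM, the pyruvate kinase of most tissues and tumours, lay between 1141 and 1479 FPKM in control (median 1247) and between 835 and 1259 FPKM in 6AN (median 927). It was lower at each hour, by -0.41 ± 0.08 (SD, n = 12), and its 6AN range reached into that of control only at hour 0.

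LDHA, the lactate dehydrogenase subunit that favours lactate formation, lay between 305 and 435 FPKM in control (median 354) and between 165 and 227 FPKM in 6AN (median 193). The ranges were apart and the mean difference was -0.88 ± 0.15 (SD, n = 12). The gap was already there at hour 0, with 435 FPKM in control and 209 FPKM in 6AN. LDHB, the heart-type subunit, lay between 636 and 756 FPKM in control (median 680) and between 495 and 674 FPKM in 6AN (median 614). LDHB was lower at 10 of 12 time points and the ranges overlapped, its mean difference being -0.27 over the first 6 time points and -0.09 over the last 6. LDHA went from 33.9% to 23.5% of the summed subunits in the median library. PDK1, the kinase that switches off pyruvate dehydrogenase and a known target of hypoxia-inducible factor, was among the least abundant genes of the set at a median of 2.35 FPKM in control and 2.84 FPKM in 6AN, higher at 10 of 12 time points.

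**Figure D2:**
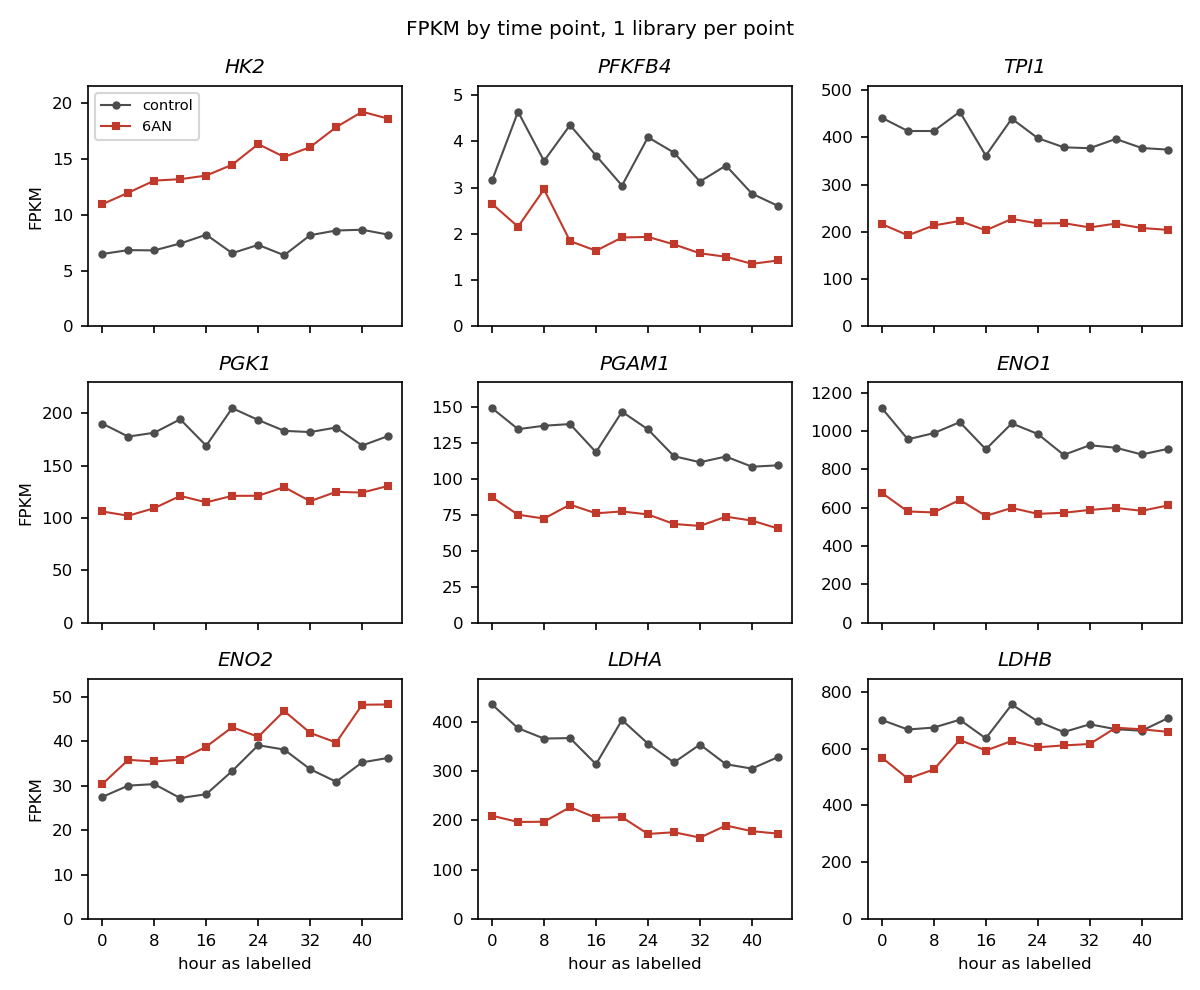
FPKM against the labelled hour for 9 genes, with 1 library per point, control as grey circles and 6AN as red squares, and each vertical axis starting at 0. The 6AN line lies above control throughout for HK2 and ENO2 and below it throughout for PFKFB4, TPI1, PGK1, PGAM1, ENO1 and LDHA, whereas the LDHB lines meet late in the series.

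Differences were smaller in mitochondrial oxidation, where 0 of 20 genes reached a mean of 0.5 in size. The 4 listed genes of the pyruvate dehydrogenase complex, PDHA1, PDHB, DLAT and DLD, were lower in 6AN at all 12 time points. PDHX, the E3-binding protein of the complex and not a gene of the set, was not, with a mean difference of 0.05 ± 0.13 (SD, n = 12). DLD, the dihydrolipoyl dehydrogenase that this complex shares with oxoglutarate dehydrogenase, had the largest difference of the 4 and ranges that were apart, with 21.2 to 25.6 FPKM in control (median 23.4) and 14.6 to 19.5 FPKM in 6AN (median 17.2). DLAT, the acetyltransferase core, lay between 17 and 20.1 FPKM in control (median 18.4) and between 13.7 and 17.1 FPKM in 6AN (median 14.6). PDHA1 and PDHB, the subunits of the catalytic E1 component, had mean differences of -0.20 ± 0.06 and -0.25 ± 0.11 (SD, n = 12 each).

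At the entry of the cycle 0 of 4 genes had a constant sign. CS, citrate synthase, and IDH3A, the catalytic subunit of the NAD-dependent isocitrate dehydrogenase, were each higher in 6AN at 11 of 12 time points, with mean differences of 0.17 ± 0.07 and 0.26 ± 0.17 (SD, n = 12 each). IDH3B and IDH3G, its other subunits, had means of -0.10 and -0.02 and mixed signs. OGDH, the first component of oxoglutarate dehydrogenase, lay between 18.5 and 22.3 FPKM in control (median 20.7) and between 15.8 and 24.7 FPKM in 6AN (median 17.9). DLST, its succinyltransferase, lay between 41.3 and 52.7 FPKM in control (median 47.4) and between 37.7 and 51.6 FPKM in 6AN (median 41.4). Both were lower at 10 of 12 time points with overlapping ranges.

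Succinyl-CoA ligase pairs SUCLG1 with SUCLG2 in the GDP-forming enzyme or with SUCLA2 in the ADP-forming one. SUCLG2 lay between 24 and 30.3 FPKM in control (median 26.4) and between 15.1 and 23.2 FPKM in 6AN (median 19.7). Its ranges were apart, with a mean difference of -0.47 ± 0.22 (SD, n = 12) that was -0.63 over the first 6 time points and -0.31 over the last 6. SUCLA2 lay between 9.11 and 13.9 FPKM in control (median 12.3) and between 8.69 and 12.7 FPKM in 6AN (median 10.6), lower at 11 of 12. The 4 subunits of succinate dehydrogenase, which also serves the respiratory chain, had mixed signs, from -0.18 for SDHC to 0.13 for SDHB. Fumarase (FH) and cytosolic malate dehydrogenase (MDH1, part of the malate-aspartate shuttle) were lower at all 12, and the control and 6AN ranges of MDH1 were apart at 85.5 to 105 and 58.6 to 73.8 FPKM. The FH call was absent with libraries centred on their medians. MDH2, the mitochondrial form, was lower at 11 of 12 with a mean of -0.14.

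Several of these transcripts have near-identical copies in the genome. The tables listed DLSTP1, PGAM1P5, SDHAP1, SDHAP2, SDHAP3, TPI1P2 and TPI1P3, with means of at most 9.45 FPKM, and how reads shared with such copies were assigned is not given in the sources used here. Values for DLST, PGAM1, SDHA and TPI1 carry that uncertainty. Copies were looked for only by name among the listed loci, so values for other genes may carry it too.

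Isoenzyme ratios compare 2 loci of the same library and so do not depend on how each table was scaled. Of 9 ratios, 8 differed between 6AN and control (exact two-sided sign-flip permutation test over 12 same-hour pairs, p = 0.000488 each, the smallest that 12 pairs can give; Benjamini-Hochberg adjusted p = 0.000549), with all 12 pairs in the same direction. The pairs are time points of 1 culture series per condition, so these p-values measure the spread over time and not that between experiments. Other pairs of loci were not compared in this way, so no background share stands beside the 8. By level, 12.6% of all single loci were higher and 19.8% lower at all 12 time points. The count of 8 therefore cannot be read as particular to these isoenzymes. On the log2 scale HK2/HK1 was higher by 1.24 ± 0.24 (SD, n = 12), ENO2/ENO1 by 1.0 ± 0.10, LDHB/LDHA by 0.70 ± 0.14 and SUCLA2/SUCLG2 by 0.31 ± 0.18. PFKFB4/PFKFB3 differed by -1.04 ± 0.29 (SD, n = 12), PFKM/PFKL by -0.40 ± 0.26, PFKP/PFKL by -0.39 ± 0.17 and ALDOC/ALDOA by -0.37 ± 0.17. The libraries of the 2 conditions did not overlap for HK2/HK1, ENO2/ENO1, LDHB/LDHA and PFKFB4/PFKFB3. LDHB exceeded LDHA 1.95-fold in the median control library and 3.25-fold in the median 6AN library. SLC2A3/SLC2A1 was higher by 0.19 ± 0.32 (SD, n = 12) with 7 of 12 pairs in that direction, which did not pass (exact sign-flip permutation test, adjusted p = 0.0825).

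**Figure D3:**
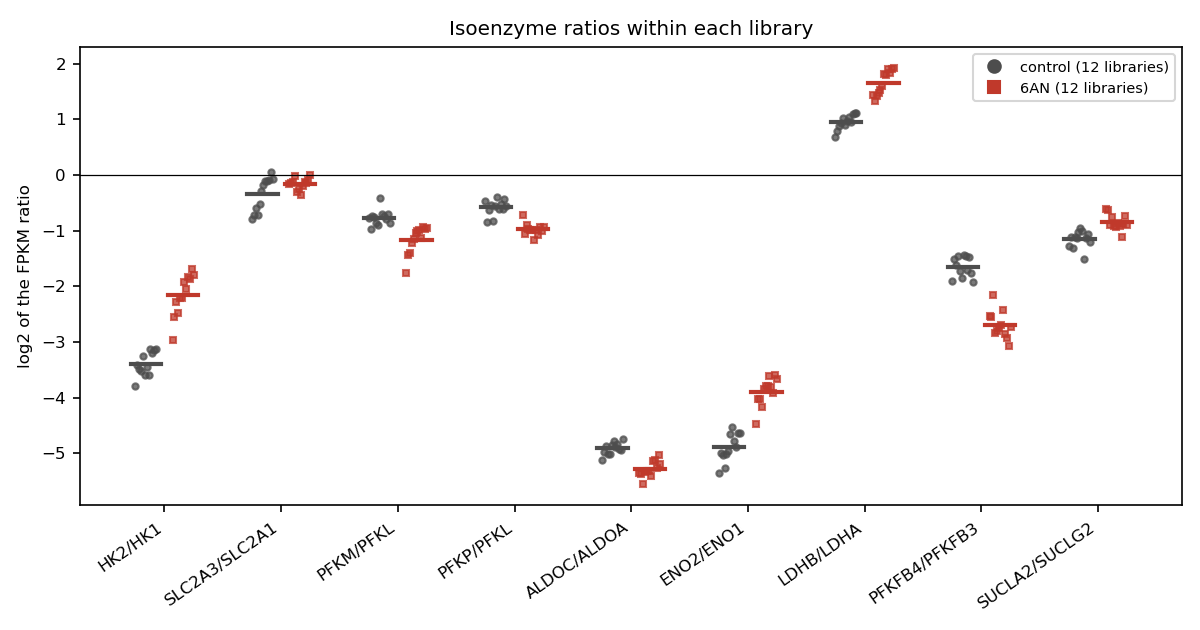
Log2 of the FPKM ratio of 2 isoenzymes within each library, for 9 ratios, with control as grey circles and 6AN as red squares, drawn from left to right in order of time; horizontal lines are means over 12 libraries. Control and 6AN are separated for HK2/HK1, ENO2/ENO1, LDHB/LDHA and PFKFB4/PFKFB3, and SLC2A3/SLC2A1 overlaps.

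Transcripts of glycolysis also changed within each series. A linear slope was fitted together with a 24 hr cosine by limma, within each table, and adjusted over all 14678 loci by the Benjamini-Hochberg method at a threshold of 0.05. In 6AN, 9 of the 43 genes rose (20.9%, against 10.4% of all loci) and 9 fell (20.9%, against 12.5% of all loci). With libraries centred on their medians the 6AN split was 11 and 7. In control, 2 rose (4.65%, against 2.47% of all loci) and 4 fell (9.30%, against 2.79% of all loci). Glycolysis supplied 14 of the 18 genes called in 6AN and all 6 called in control. In 6AN, 60.9% of the glycolytic genes and 20% of those of mitochondrial oxidation were called, against 22.9% of all loci. In control the shares were 26.1% and 0%, against 5.26% of all loci. GPI, PFKFB3, PGAM1 and ENO2 were called in both conditions, each in the same direction. SLC2A3 and ALDOA were called in control alone and 14 genes in 6AN alone, but the difference in slope between conditions was not tested.

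Among the genes that rose in 6AN, HK2 had the largest fitted change, 0.70 ± 0.07 (SE) in log2(FPKM + 1) from hour 0 to hour 44 (limma adjusted p = 0.000246). It went from 11 FPKM at hour 0 to 18.6 FPKM at hour 44, whereas its fitted change in control was 0.22 ± 0.09 (limma adjusted p = 0.244). ENO2 rose by 0.55 ± 0.10 in 6AN (limma adjusted p = 0.00469) and by 0.49 ± 0.08 in control (limma adjusted p = 0.0114). SUCLG2 rose by 0.53 ± 0.12 in 6AN (limma adjusted p = 0.0114), towards the control level. SLC2A1 rose by 0.37 ± 0.07 (limma adjusted p = 0.00588), and PFKM, PFKFB2, PGK1, LDHB and DLAT rose by between 0.22 and 0.40. SLC2A3 rose in control by 0.65 ± 0.08 (limma adjusted p = 0.00337), the largest change there, and its change in 6AN was 0.43 ± 0.14 (limma adjusted p = 0.0588).

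The genes that fell in 6AN included the end of glycolysis. PKM had a fitted change of -0.47 ± 0.09 in 6AN (limma adjusted p = 0.00547) and -0.33 ± 0.09 in control (limma adjusted p = 0.0637). LDHA had -0.41 ± 0.06 in 6AN (limma adjusted p = 0.00199) and -0.34 ± 0.11 in control (limma adjusted p = 0.115). Both of them thus had slopes of the same sign in control that did not pass. DLST and OGDH, partners in the oxoglutarate dehydrogenase complex, fell in 6AN by 0.41 ± 0.07 and 0.49 ± 0.11 (limma adjusted p = 0.00283 and 0.0127). PFKFB4, PFKFB3, PGAM1, GAPDH and GPI fell in 6AN by between 0.27 and 0.52. GPI, PFKFB3, PGAM1 and ALDOA fell in control by between 0.33 and 0.49.

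Some calls rested on particular libraries. Of the 18 genes called in 6AN, 11 stayed below the threshold when any 1 time point was left out, and of the 6 in control 3 did (SLC2A3, GPI and ENO2). The 6AN calls of GPI and GAPDH held in only 2 of 12 such fits, those without hour 8 and without hour 16. LDHB lost its call without hour 8, 16, 28, 32 or 36, PFKFB4 without hour 0, 28 or 32, PFKFB3 and PGK1 without hour 0 or 44, and PFKM without hour 0. In control, PFKFB3 was lost without hour 12, 16, 28, 32, 36, 40 or 44, PGAM1 without hour 0, 8, 12, 28, 32, 40 or 44, and ALDOA without hour 0, 32, 40 or 44. The highest adjusted p among these fits was 0.158 in 6AN and 0.0899 in control.

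**Figure D4:**
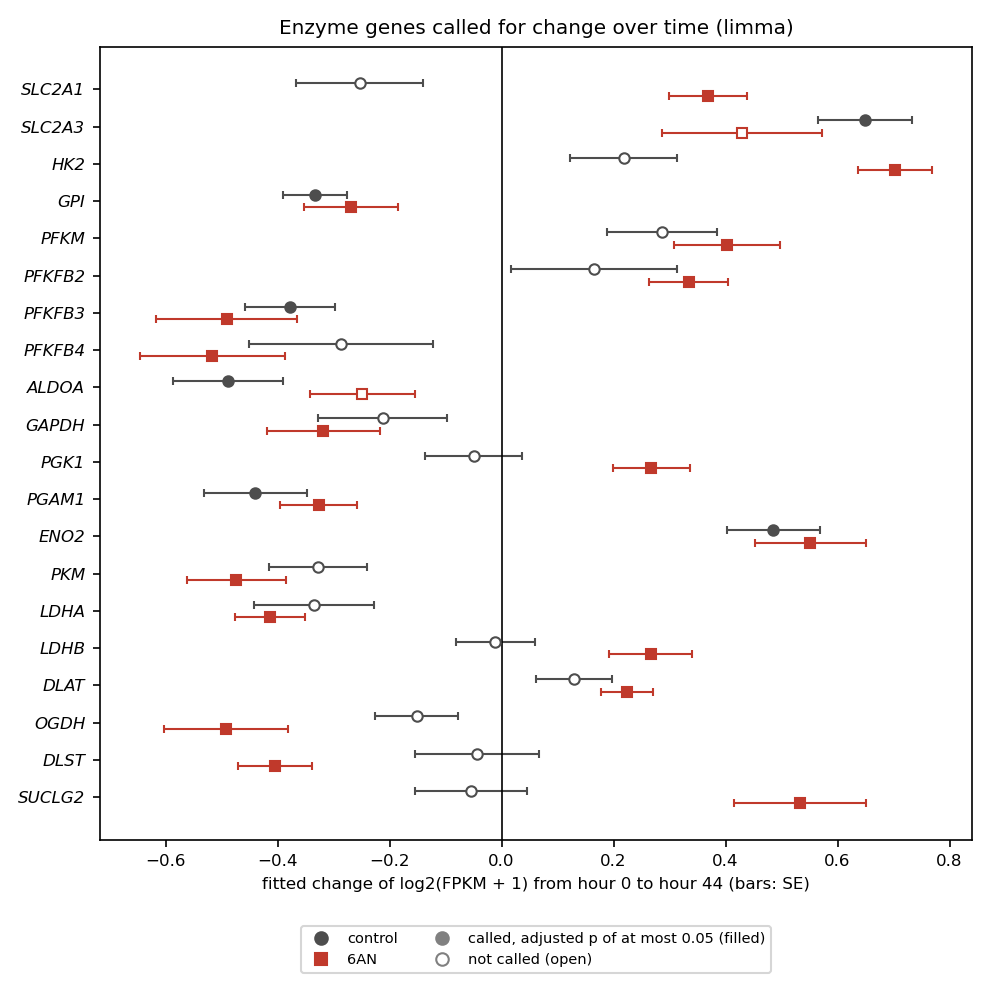
Fitted change of log2(FPKM + 1) from hour 0 to hour 44 with its SE for the 20 genes called in either condition, control as grey circles and 6AN as red squares, filled where the limma adjusted p was at most 0.05. HK2 in 6AN lies farthest to the right at 0.70, and PFKFB4 in 6AN farthest to the left at -0.52.

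No gene of the set was rhythmic with a 24 hr period at an adjusted p of at most 0.05 by limma's moderated F-test, in control (1 locus in all, 0.00681%) or in 6AN (0 loci, 0%). At an unadjusted p below 0.05 there were 2 in control (4.65%, against 6.61% of all loci) and 3 in 6AN (6.98%, against 7.75% of all loci). At an unadjusted p of at most 0.01, the stricter of the unadjusted thresholds, 1 of 43 passed in control (2.33%, against 1.42% of all loci) and 3 of 43 in 6AN (6.98%, against 1.94% of all loci). The control gene was ENO2, with a log2 amplitude of 0.16 and a fitted peak at 1.85 hr (limma p = 0.00581). In 6AN they were SLC2A1, with an amplitude of 0.20 and a peak at 22.1 hr (limma p = 0.000168, adjusted p = 0.171), LDHA, with 0.12 and a peak at 15.5 hr (limma p = 0.00536), and DLAT, with 0.08 and a peak at 22.1 hr (limma p = 0.00837). The SLC2A1 value stayed at or below p = 0.000813 whichever time point was left out, while LDHA passed 0.01 in 9 of those 12 fits, ENO2 in control in 7 and DLAT in 2.

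BMAL1 and CLOCK peaks were found at some of the same genes. An interval of the merged peak list lay within the locus or 1000 bp of it for 16 of 43 genes (37.2%, against 26.6% of all loci). For BMAL1 there were 8 genes in control (18.6%, against 12.7%) and 11 in 6AN (25.6%, against 17.6%), and for CLOCK there were 1 in control (2.33%, against 1.86%) and 5 in 6AN (11.6%, against 7.96%). The shares were thus not far from those of all loci, and the lists as a whole were longer in 6AN, with 2314 against 1577 intervals for BMAL1 and 1369 against 289 for CLOCK. LDHA carried CLOCK in control, and HK2, PFKFB3, PKM, LDHA and LDHB, all of them glycolytic, carried CLOCK in 6AN. In mitochondrial oxidation the peaks were of BMAL1 alone and overlapped a RefSeq promoter window at SDHA, SDHB, SDHD, CS and MDH2. With 1 library per antibody and condition, a peak called in 1 condition and not the other has no replicate check.

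The authors also deposited lists of shared BMAL1/CLOCK sites, apart from the merged peak list. LDHA and PKM were the only members among the 439 sites listed for 6AN, and 0 members were among the 147 listed for control. The share of all loci with a listed site is not given here and the control list is shorter, so no gain at the members can be read from these counts. In the merged peak list, by contrast, an LDHA interval was called for both factors in both conditions, and a PFKFB3 interval for both factors in 6AN. The signal is the number of tags in 1000 bp scaled to 10000000 per library, with exact 95% Poisson intervals that cover counting error only. At the LDHA site (chr11:18393951-18394951), which holds both E-boxes shown above, BMAL1 was 28.1 (interval 17.4 to 43) in control and 36.1 (24.1 to 52) in 6AN. CLOCK there was 46.6 (28 to 72.7) and 50.5 (32 to 75.8), and input was 9.02 and 7.25. These LDHA intervals overlapped widely for both factors. The LDHA transcript was 0.88 lower on the log2 scale in 6AN, as a mean over the time series. The BMAL1 and CLOCK signals come from a single time of incubation, so they are not matched to that mean. At a single time, a shift in the timing of binding cannot be told apart from a difference in its level.

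At the PKM site (chr15:72230873-72231873), whose printed promoter has no CACGTG, BMAL1 was 12.7 (interval 5.97 to 23.8) in control and 41.2 (28.2 to 57.9) in 6AN. The ratio for BMAL1 was 3.23. The site was listed for 6AN and its peak was called in 6AN alone, so a higher signal there follows in part from the choice of site, and the separation of the 2 libraries is a description only. CLOCK at PKM was 31.9 (17 to 54.5) and 51.6 (32.9 to 77.2), with overlap, and input was 9.02 and 9.33. Of the histone marks of active promoters, H3K4me3 was 311 in control and 227 in 6AN at LDHA and 359 and 324 at PKM. H3K9ac was 124 and 131 at LDHA and 245 and 226 at PKM, and the intervals overlapped for both marks at both genes.

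**Figure D5:**
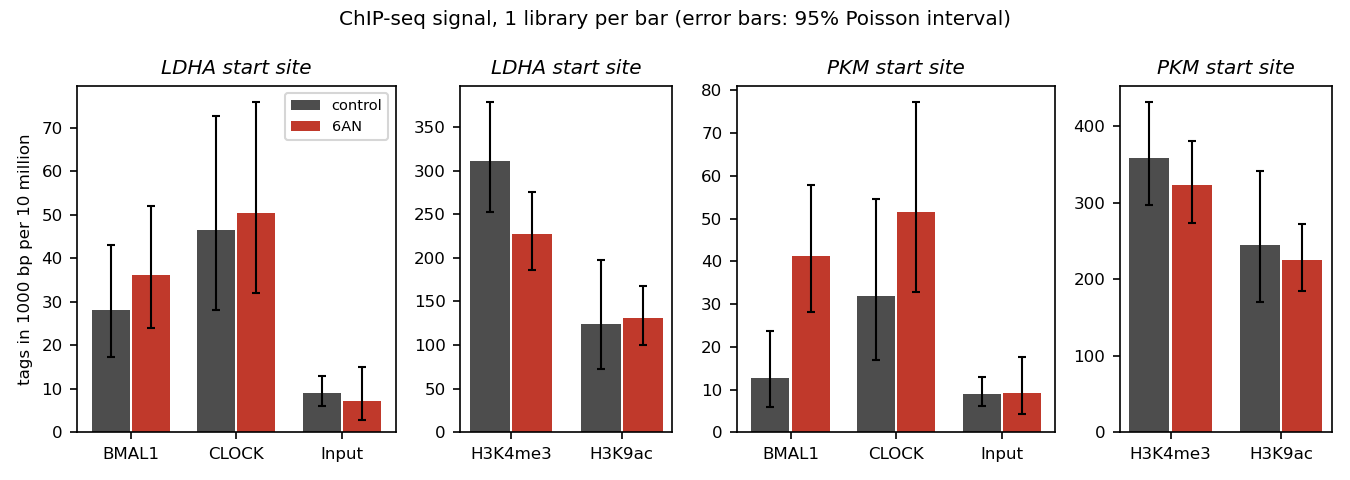
ChIP-seq signal, in tags per 1000 bp scaled to 10000000 tags, at the LDHA and PKM start sites, with 1 library per bar, control in grey and 6AN in red, and 95% Poisson intervals as error bars. Both sites come from the list for 6AN, which favours a higher 6AN signal; BMAL1 at PKM reads 12.7 in control and 41.2 in 6AN.

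Neighbouring genes of the pathway, listed from textbook roles, had the same mixture. Of 31 such genes 25 were tested, and the others, among them HK3, PGK2, PKLR and PFKFB1, were below the level required. At all 12 time points 7 were lower in 6AN (28%, against 19.8% of all loci: ENO3, BPGM, PDK2, PDP1, ACO1, IDH1 and ME1), and the median over the 25 was -0.21. PDP1, the phosphatase that reactivates pyruvate dehydrogenase, had a median of 22.8 FPKM in control and 13.2 FPKM in 6AN with ranges that were apart. PC, which makes oxaloacetate from pyruvate, had medians of 10.9 and 16 FPKM and was higher in 6AN at all 12, and MPC1, a subunit of the mitochondrial pyruvate carrier, had 26.6 and 38.4 FPKM and was higher at 11 of 12. By limma slope, 3 of the 25 rose in control (against 2.47% of all loci) and 1 fell (2.79%). In 6AN 3 of the 25 rose (against 10.4% of all loci) and 5 fell (12.5%).

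Many glycolytic genes are targets of hypoxia-inducible factor, so other hypoxia-responsive genes were read beside them. Of 14 listed, 12 were tested (CA9 and EGLN3 were too low), and at all 12 time points 6 were higher in 6AN (VEGFA, BNIP3, EGLN1, NDRG1, KDM3A and MXI1), that is 50%, against 12.6% of all loci. At all 12 time points 3 were lower (P4HA1, P4HA2 and ERO1L), that is 25%, against 19.8% of all loci. The median was 0.21, against -0.23 over the 23 glycolytic genes. VEGFA, the angiogenic growth factor, had medians of 29.5 and 59.9 FPKM and a mean difference of 0.92 ± 0.15 (SD, n = 12), close to that of HK2. Within the 23 glycolytic genes, HK2, SLC2A3 and ENO2 were higher at all 12 time points. The 10 lower at all 12 were HK1, GPI, PFKFB4, TPI1, GAPDH, PGK1, PGAM1, ENO1, PKM and LDHA. The other 10 had mixed signs, among them PDK1, higher at 10 time points. The list of hypoxia-responsive genes was chosen with earlier results of these data known. Whether hypoxia-inducible factor had a part in any of these differences was not tested. By limma slope 5 of the 12 rose in 6AN (against 10.4% of all loci) and 1 fell (12.5%), and in control 1 rose (2.47%) and 0 fell (2.79%).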

How the data were processed

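The 43 genes and the gene lists were chosen with earlier results of these data known. The submitters' processing notes name Bowtie, TopHat and Cufflinks for RNA-seq and Bowtie2 and HOMER for ChIP-seq, with the build hg38, and versions are not given in the sources used here. The authors deposited FPKM per locus in 1 table for control and 1 for 6AN. From ChIP-seq the authors deposited signal values (HOMER tags in 1000 bp scaled to 10000000) at shared sites, and a merged peak list in which peaks within 200 bp were joined. How the RNA extractions of a time point were combined is not given.

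Loci with a mean of at least 0.7 FPKM over all 24 libraries were kept, and a pseudocount of 1 was added before log2, which understates fold changes of low genes. Slopes and rhythms were fitted per table with limma 3.58.1 (R 4.3.3, moderated tests) by code tested on simulated data. Ratios were compared by exact permutation in Python code, and Poisson intervals were computed with SciPy (1.17.1). Remaining steps used pandas (2.3.3) and NumPy (2.4.6) under Python (3.11.15), with plots by matplotlib (3.10.9). Promoter sequences are those of RefSeq, GRCh38.p14. All per-sample columns were used. Some genes of the pathway list are not reported here. FPKM tables hold no counts, so counting error is unknown. Genes are given in full where they differed with 1 sign at all 12 hours by at least 0.5, passed a limma test, or belonged to a ratio that passed, and the others by counts and examples. Alternatives were other pseudocounts, scaling, filters, periods, subsets of time points, no pairing and division by input.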

Additional observations from a re-analysis of the deposited data

How the results depend on the processing

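Under other pseudocounts, scaling, subsets of time points and single time points left out, none of 688 recomputed mean level differences of the 43 genes moved by more than its SD over time. None changed sign among the 20 genes with a constant sign, but means near 0 did for ALDOA (first 6 time points, and without hour 36, 40 or 44), IDH3G (first 6, centred libraries, and without hour 8), IDH3B and SDHD (last 6). The number of genes higher in 6AN throughout was 3, and was 6 with libraries centred on their medians and 6 over the last 6 time points alone. Leaving out 1 time point gave 3 to 4 higher and 17 to 18 lower. Over all loci, the share with a constant sign was 6.61% higher and 10.5% lower with no filter on low values. Among loci with a mean of at least 5 FPKM it was 15.1% higher and 23.2% lower, so the background share depended on the level.

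For change over time in control, members that fell numbered 4, but 2 with no filter and 1 to 7 with 1 time point left out (7 without hour 16, 1 without hour 32, 40 or 44, and 2 without hour 0, 12 or 28). Those that rose numbered 2, but 1 with the slope fitted alone. In 6AN, those that fell numbered 9, with a range of 5 (without hour 0) to 12 (without hour 16). Across all loci in control, 363 rose and 409 fell, against 227 and 270 with no filter, where more loci were tested, and 204 to 313 and 220 to 405 with 1 time point left out (over 1.5 times lower without hour 0, 12, 28 or 44 for rises and hour 0, 12, 32 or 44 for falls). In 6AN 1830 fell, against 1084 without hour 0. Members with a rhythm at p of at most 0.01 numbered 1 in control, with 0 under the cosine alone, 0 at a 28 hr period and 0 to 2 with 1 time point left out (0 without hour 12, 16, 24, 28 or 36, and 2, with PDK1, without hour 8). In 6AN they numbered 3, with 1 under the cosine alone, 0 at 28 hr and 1 to 3 with 1 time point left out (1, SLC2A1, without hour 4, 12 or 24). Over all loci in 6AN, 285 passed at p of at most 0.01, with 173 under the cosine alone and 437 without hour 16. Where not stated, the cause was not tested. All 9 isoenzyme ratios kept their direction and their side of the threshold under a pseudocount of 1, without pairing and with each time point left out. Dividing the signal by input gave BMAL1 ratios (6AN over control) of 1.60 at LDHA and 3.13 at PKM.

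With 1 culture series per condition, no value here measures the variation between experiments.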
